A study of Mus musculus with 2 samples.

Results

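The genes described here were 10 members of the AP-1 and immediate early gene program, out of 31053 genes in the count matrix: Fos, Fosb, Jun, Junb, Jund, Egr1, Atf3, Ier2, Dusp1 and Zfp36. They were selected on measured values of these data: raw counts per library, per keratin band and per cell cycle state, and correlations in single cells. For that reason these values are given as a description and no p-value is printed for a member. The cells came from the cornea of mice with the CycB1-GFP genotype, a reporter carried in both replicates and linking green fluorescent protein to Cyclin B1, which accumulates as cells approach mitosis. Corneas were kept overnight in cold Dispase, the peeled epithelium was dissociated in warm trypsin, and live GFP-positive cells were sorted before 3' single-cell library preparation. The labels give 1 group with no untreated or GFP-negative control, no time course, and no age, sex or batch. Each library was therefore 1 sample, no test between libraries was possible, and the labels do not tie a library to a replicate number.

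Immediate early genes are transcribed within minutes of growth factor, mechanical or stress signals, without new protein synthesis, through MAP kinase pathways acting on factors already bound at their promoters. FOS proteins pair with JUN proteins to form AP-1, which binds DNA through a basic leucine zipper, whereas JUN proteins can also pair among themselves. In epidermis and cornea AP-1 is known for its part in keratinocyte proliferation, differentiation and wound responses. The same genes are known to be induced in many tissues by enzymatic dissociation, and no sample processed without dissociation was among the libraries.

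Promoter sequence was available from RefSeq for 8 of the 10 members, as windows of 300 bases. The stretches printed are the 250 bases upstream of the RefSeq start (GRCm38.p6), shown for the FOS member and for the JUN members with the highest level and the smallest band difference. Capitals mark a TGACGT match (the core of the cyclic AMP response element) and a TATAAA match. Fos lies on the plus strand (chr12:85473640-85473889), Jun on the minus strand (chr4:95052223-95052472) and Jund on the plus strand (chr8:70697489-70697738). The Fos and Jun stretches adjoin the gene starts given below. The Jund stretch belongs to a RefSeq start upstream of the gene start given below (70698949) and does not adjoin it, so it is not comparable in position.
Fos: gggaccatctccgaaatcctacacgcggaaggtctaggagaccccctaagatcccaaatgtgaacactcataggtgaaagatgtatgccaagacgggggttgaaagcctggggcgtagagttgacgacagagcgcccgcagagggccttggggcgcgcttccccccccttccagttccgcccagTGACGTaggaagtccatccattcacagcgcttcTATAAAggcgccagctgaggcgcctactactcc
Jun: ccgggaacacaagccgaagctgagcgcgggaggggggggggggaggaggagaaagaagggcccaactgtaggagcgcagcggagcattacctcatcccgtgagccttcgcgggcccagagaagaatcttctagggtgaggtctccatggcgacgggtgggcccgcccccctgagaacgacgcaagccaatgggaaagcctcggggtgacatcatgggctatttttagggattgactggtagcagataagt
Jund: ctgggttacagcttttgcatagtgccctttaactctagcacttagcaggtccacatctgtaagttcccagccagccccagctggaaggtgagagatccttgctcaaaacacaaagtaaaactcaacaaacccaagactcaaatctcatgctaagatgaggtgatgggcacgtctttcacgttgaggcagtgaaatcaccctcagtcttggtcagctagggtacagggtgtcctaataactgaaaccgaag
In the Fos window TGACGT began 66 bases and TATAAA 33 bases before the start, whereas the Jun and Jund stretches held neither.

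On both strands of all 32851 RefSeq windows, TGACGT occurred in 7.51% and, among the 8 members with a window, in Fos, Atf3 and Dusp1. That motif was added to the search after the Fos sequence had been seen. The full element TGACGTCA, which contains it, occurred in 1.79% of windows and in Dusp1 alone among the members, 143 bases before the start. The CArG box, bound by serum response factor, occurred in 1.63% of windows and in Zfp36 only among the members. TATAAA was found in 13.6% of windows, and in those of Fos and Junb. Neither TGAGTCA, the AP-1 element itself (5.2% of windows), nor GCGTGGGCG, bound by EGR proteins (0.612%), was in a member's window. These matches describe letters in short windows, and whether any of them is bound was not tested.

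The matrix held 6752 barcodes, of which 6188 passed limits of 500 or more genes and less than 20% mitochondrial UMIs (unique molecular identifiers, 1 for each captured RNA molecule). Kept cells numbered 3187 in library 1 and 3001 in library 2, with median depths of 5571 and 5886 UMIs. Cells were divided by the Krt12 share of their Krt12 and Krt15 UMIs, where Krt12 is the keratin of corneal epithelium and Krt15 a keratin of limbal and basal cells. The band under 0.4 held 663 and 959 cells in libraries 1 and 2, the band from 0.4 to 0.8 held 161 and 164, and the band above 0.8 held 2304 and 1821. Only 5 barcode sequences occurred in both libraries. Corneal epithelial markers reached 29828 and 31018 CPM (UMIs of a gene scaled to a common total, the usual unit for sequencing depth), and the 3 goblet cell markers had no UMI. Immune markers summed to 0.697 CPM in library 1 against 14.1 CPM in library 2. Of the 250 immune marker UMIs of library 2, most were of Cd74, with 191, 30 and 16 in order of rising Krt12 share.

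Member RNA was more abundant in library 1 and, within each library, in the band above 0.8. Summed over the 10 members, the level was 4649, 5400 and 8448 CPM in library 1 from the lowest to the highest Krt12 share. The matching sums in library 2 were 2062, 3144 and 3998 CPM. Every band of library 1 lay above every band of library 2. All levels that follow are CPM over the summed cells of a band, and their 95% exact Poisson intervals cover counting error only.

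Fos (chromosome 12, 85473890 to 85477273, GRCm38), the founding FOS subunit, had 479, 802 and 1485 CPM in library 1 in order of rising Krt12 share, and 162, 363 and 550 CPM in library 2. The intervals of these sums did not overlap between libraries in any band or between bands in either library. Fosb (chromosome 7, 19302696 to 19310051), a second FOS subunit, had 374, 644 and 1165 CPM in library 1 and 116, 199 and 253 CPM in library 2. Its library ratio was the largest among the members in the band above 0.8, at 4.60-fold (log2 2.20, interval 2.15 to 2.26).

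Jun (chromosome 4, 95049034 to 95052222), the principal JUN subunit, was the most abundant member in every sum. Its level was 1563, 1656 and 2477 CPM in library 1 and 649, 1016 and 1246 CPM in library 2, so that here too the libraries did not overlap. Junb (chromosome 8, 84974484 to 84978718), a JUN protein with weaker activating capacity, had 431, 499 and 716 CPM in library 1 and 224, 345 and 444 CPM in library 2. The top band of library 2 and the lowest band of library 1 overlapped within their intervals. Jund (chromosome 8, 70698949 to 70700616), the JUN member known for steady expression in unstimulated cells, had 622, 661 and 846 CPM in library 1 and 448, 473 and 529 CPM in library 2. Relative to its level, its range across bands was the narrowest of the 5 subunits in both libraries.

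Atf3 (chromosome 1, 191170296 to 191218039), a stress-induced bZIP factor that pairs with JUN proteins, had 309, 254 and 392 CPM in library 1. In library 2 it had 50.9, 78.8 and 160 CPM. The Atf3 level thus differed between libraries by 6.08-fold in the band under 0.4 and by 2.45-fold above 0.8. Ier2 (chromosome 8, 84661331 to 84662852), a nuclear protein of the immediate early response, had 254, 347 and 578 CPM in library 1 and 148, 259 and 320 CPM in library 2, with higher values at higher Krt12 share in both.

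Egr1 (chromosome 18, 34859823 to 34864984), a zinc finger factor induced by ERK signalling, was the exception among the members. It had 98.7, 75.3 and 85.2 CPM in library 1 and 93.4, 142 and 150 CPM in library 2. In the band under 0.4 the interval of its log2 ratio (library 1 over library 2) ran from -0.12 to 0.28. Above 0.8 the log2 ratio was -0.82 (interval -0.92 to -0.71), opposite to the other 9 members.

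The remaining members encode feedback regulators. Dusp1 (chromosome 17, 26505590 to 26562128), a phosphatase that switches off MAP kinases, had 399, 312 and 416 CPM in library 1 and 128, 194 and 204 CPM in library 2. The lowest band of library 1 was therefore close to its highest, unlike in library 2. Zfp36 (chromosome 7, 28376784 to 28380253), which binds AU-rich elements and speeds the decay of immediate early messenger RNAs, had 119, 150 and 287 CPM in library 1 and 42.3, 74.4 and 141 CPM in library 2. Across members, the half-width of the counting interval reached at most 22.0% of the level, for Zfp36.

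**Figure D1:**
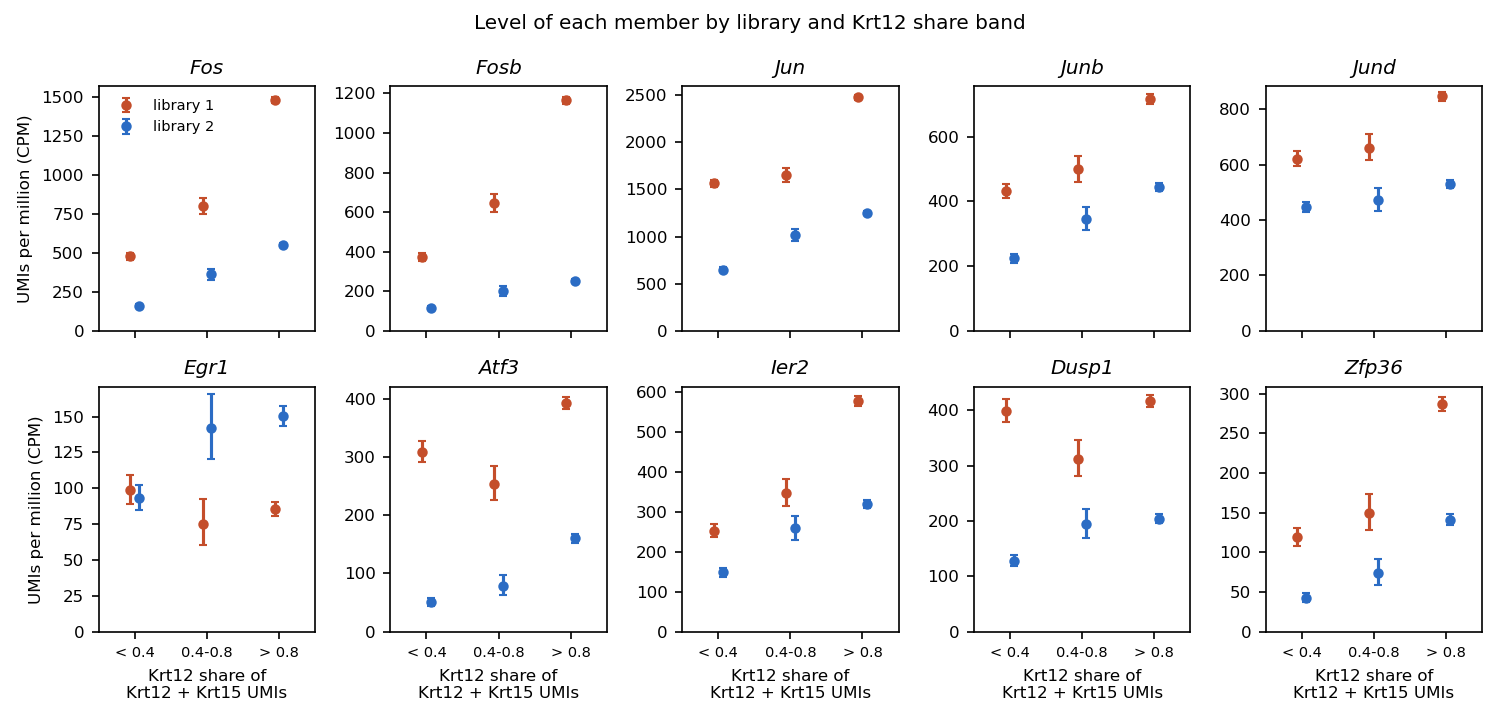
Level of each member in CPM (y axis) in the 3 bands of the Krt12 share (x axis), with 1 point for each library and bars for the 95% exact Poisson interval. Library 1 lies above library 2 in all bands for 9 members, whereas Egr1 is lower in library 1 in the upper bands (85.2 against 150 CPM above 0.8).

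Between the libraries, 4 of the 10 members (Fos, Fosb, Atf3 and Zfp36) were at least 2-fold higher in library 1 in all 3 bands. Of 5184 genes with a mean over the libraries of at least 20 CPM in every band, 0.328% (17 genes) passed the same rule. Because the members were selected with this contrast in view, nothing is read from that difference. The median log2 ratio of the members was 1.38, 0.70 and 1.01 in order of rising Krt12 share, against -0.0074, 0.0055 and -0.054 over all genes. Zfp36 lay at the limit, with 2.01-fold in the middle band, while Jun lay just outside with 1.63-fold in that band and 1.99-fold above 0.8. Zfp36 no longer passed with a mitochondrial limit of 10%, with at least 10 keratin UMIs, with band limits of 0.3 and 0.9, after thinning to 2000 UMIs or with at least 1000 genes per cell. Differences between the replicates in the animals used, in dissociation and in library preparation cannot be told apart.

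**Figure D2:**
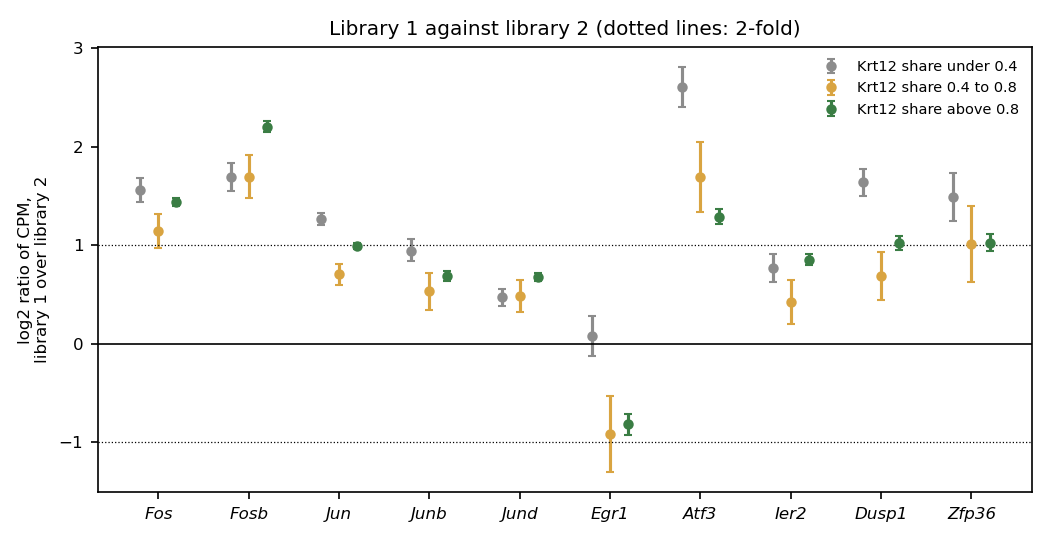
Log2 ratio of library 1 over library 2 for each member (x axis) in each band, with 95% conditional binomial intervals for counting error. Only Egr1 falls below 0, at -0.91 and -0.82 in the bands from 0.4 to 0.8 and above 0.8.

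Other quantities differed between the libraries beside the members. The 11 heat shock genes examined summed to 8809 to 9299 CPM in the bands of library 1 and to 6545 to 7088 CPM in library 2. Median mitochondrial shares were 2.49% to 3.47% in library 1 and 3.15% to 4.41% in library 2. In the band above 0.8, the members summed to 8153 CPM over the 1366 cells of library 1 with an Xist UMI and no Y-linked UMI, and to 9265 CPM over the 404 cells with a Y-linked UMI and no Xist UMI. In library 2 these sums were 4182 CPM (1256 cells) and 3656 CPM (254 cells). In that band library 1 was thus higher in both kinds of cell. Both kinds were present in both libraries, so each library may pool animals of both sexes, which the labels do not state. Summed conjunctival markers were at 314 CPM in library 1, against 636 in library 2. The part of the heat shock, mitochondrial and marker values in the library difference was not tested.

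With library as a block, the band above 0.8 was compared with the band under 0.4 by edgeR's quasi-likelihood test on summed counts. Of the 10 members, 7 passed an adjusted threshold of 0.05, all higher above 0.8, whereas 15.6% of 11140 genes passed as higher and 16.9% as lower. This contrast was also used in the selection, so the count is a description. Without the library block none of the 10 passed (0 at the same threshold), with the fold changes in the same direction. DESeq2 called 8, Atf3 being added, and with no filter on low counts Dusp1 was added. The median log2 fold change of the members was 0.91, against 0.0055 over all genes tested.

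Fos had the largest fold change of the members (log2 1.72 ± 0.085 SE, 2 libraries), followed by Zfp36 (1.5 ± 0.10) and Fosb (1.43 ± 0.13). Ier2 followed with 1.18 ± 0.093, Junb with 0.88 ± 0.086 and Jun with 0.82 ± 0.12. Jund passed with the smallest change, 0.37 ± 0.077. Both FOS subunits had larger fold changes than the JUN subunits, a difference that was not tested.

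Markers of conjunctiva, another cell type, moved with the bands as well. All 4 conjunctival markers (Krt13, Krt4, Krt19 and Krt8) were detected, and they summed to 1017 and 1867 CPM under 0.4 in libraries 1 and 2, against 112 and 109 CPM above 0.8. Krt4 alone had 358 and 567 CPM under 0.4 and 6.64 and 8.23 CPM above 0.8. The 5 immune markers summed to 1.94 and 38.5 CPM under 0.4 and to 0.361 and 2.08 CPM above 0.8. Of the 194 immune marker UMIs of library 2 under 0.4, 191 were of Cd74, so this sum describes 1 gene. Ptprc had 0 UMIs there and 5 above 0.8. The part of the conjunctival and immune markers in the members' band difference was not tested.

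The 3 members that did not pass edgeR's test were those whose fold changes differed most between libraries. For Atf3 the log2 fold change, as a ratio of CPM, was 0.34 in library 1 and 1.66 in library 2. For Dusp1 it was 0.059 and 0.67. Egr1 had opposite signs, -0.21 in library 1 and 0.68 in library 2, a difference that was not tested.

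**Figure D3:**
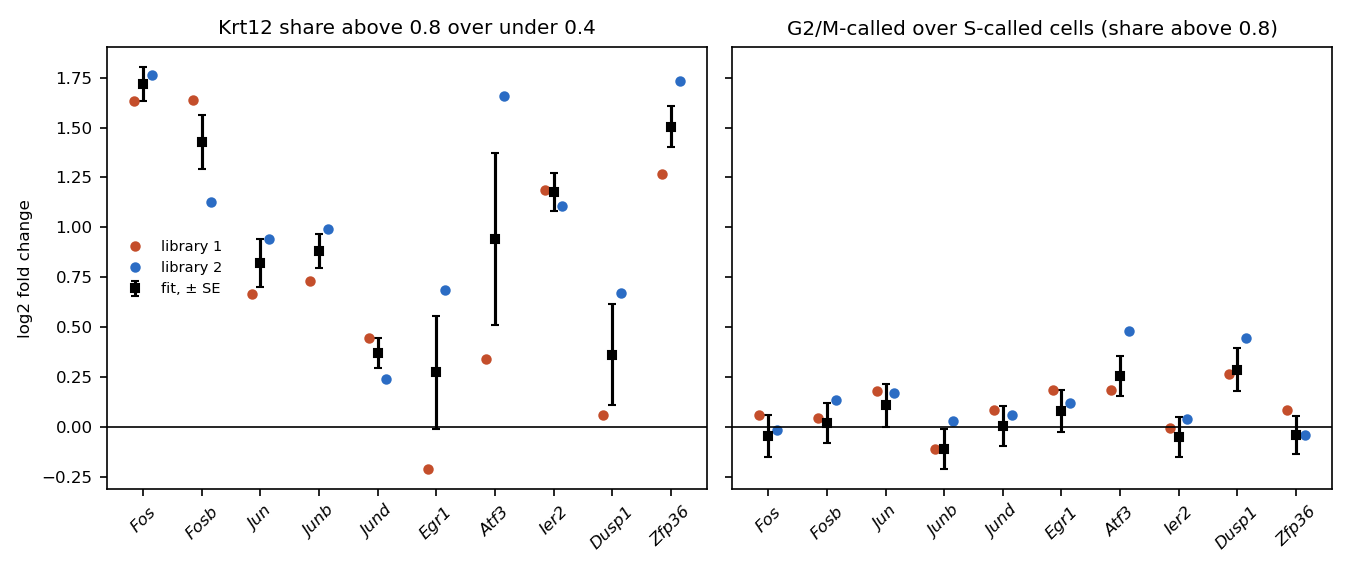
Log2 fold change of each member for the band above 0.8 over the band under 0.4 and for G2/M-called over S-called cells, with standard errors from the fit and points for the single libraries. The points are ratios of CPM without edgeR's scaling between sums, which the fit includes. Fos, Zfp36 and Fosb stand at 1.72, 1.5 and 1.43 in the band contrast, while all members lie between -0.11 and 0.29 in the cycle contrast.

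The makeup of the AP-1 subunit RNA differed between bands as well. Of the UMIs of Fos, Fosb, Jun, Junb and Jund, the FOS subunits Fos and Fosb made up 24.6% under 0.4 and 39.6% above 0.8 in library 1. In library 2 they made up 17.4% and 26.6%. Jund went the other way, from 17.9% to 12.7% in library 1 and from 28.0% to 17.5% in library 2. Jun stayed the largest component, at 37.0% to 45.1% in library 1 and 40.6% to 42.4% in library 2.

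Across finer steps of the Krt12 share, the summed level of the members in library 1 lay between 4345 and 4802 CPM in the 4 bins under 0.4. It was 6817 CPM from 0.7 to 0.8, 6335 CPM from 0.8 to 0.9 and 8585 CPM above 0.9. In library 2 it was 1986 CPM under 0.1, 3156 CPM from 0.7 to 0.8 and 4017 CPM above 0.9. On either side of the lower limit, the bins from 0.3 to 0.4 and from 0.4 to 0.5 had 4765 and 4320 CPM in library 1 and 2735 and 2875 CPM in library 2. The middle bins held 28 to 52 cells each.

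**Figure D4:**
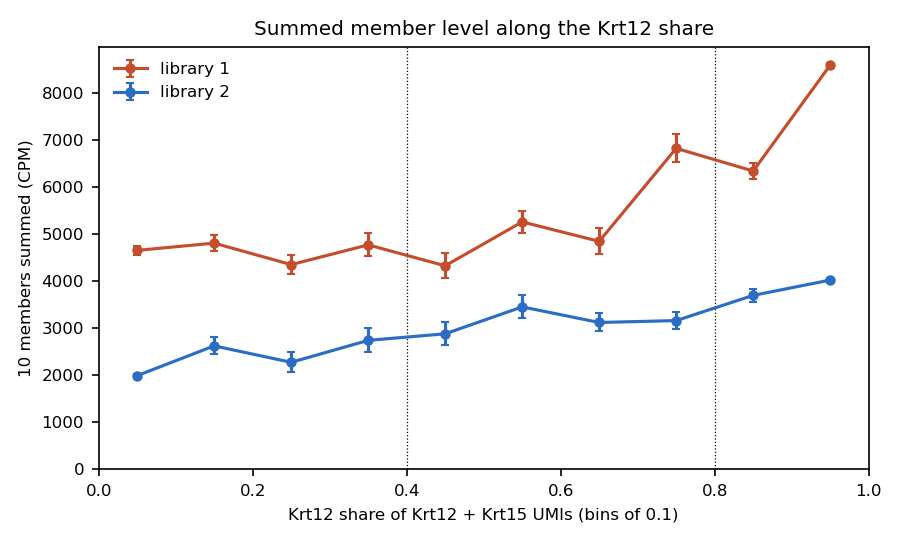
Summed level of the 10 members in CPM (y axis) against the Krt12 share of Krt12 and Krt15 UMIs in steps of 0.1 (x axis), by library, with 95% exact Poisson intervals. The highest bin has 8585 CPM in library 1 and 4017 CPM in library 2, above all other bins of its library.

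Cell cycle state was scored from S and G2/M gene lists within the band above 0.8, which gave 1673 and 1305 G2/M-called cells, 498 and 378 S-called cells and 133 and 138 G1-called cells in libraries 1 and 2. The members summed to 8507 CPM in G2/M-called, 7975 in S-called and 9824 in G1-called cells of library 1. In library 2 the sums were 4052, 3736 and 4197 CPM. No state of library 2 reached the level of any state of library 1. G1-called cells were shallower, with median depths of 3805 and 4158.5 UMIs in libraries 1 and 2. S-called cells had 5719.5 and 6031.5 UMIs, and G2/M-called cells 5934 and 6609. The part of depth in these sums was not tested.

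None of the 10 members passed edgeR's quasi-likelihood test between G2/M-called and S-called cells (0 called). Over 10300 genes, 6.3% passed as higher and 8.1% as lower, so a count of 0 in 10 is near these shares. At an unadjusted p under 0.05 in the same test, 2 members were higher and 0 lower, beside 1292 genes higher and 1503 lower. DESeq2 also called 0 of the members. The largest log2 fold changes were those of Dusp1, 0.29 ± 0.11, and Atf3, 0.25 ± 0.10. Median change over the members was 0.012. In cells of the band under 0.4, Jun and Atf3 passed, and over all banded cells Atf3 and Dusp1 passed. Cyclin B1, on which the cells were sorted, is itself a G2/M gene, and G1-called cells were few.

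In single cells thinned to 2000 UMIs, the members varied together. The mean of the 45 pairwise correlations on the log2(UMIs + 1) scale was 0.18, 0.22 and 0.32 in library 1 in order of rising Krt12 share, and 0.16, 0.15 and 0.16 in library 2. For all pairs of 2707 genes the median correlation was near 0 in each stratum (0.00076 in library 1 and 0.00029 in library 2 above 0.8). These are descriptions over cells of 1 library, which share its preparation, and in counts this sparse single pairs are weak. Correlations of the members were used in the selection, so nothing is read from their difference to all pairs. Thinning left out 325 kept cells of library 1 and 337 of library 2 with fewer UMIs. After it, the summed members still correlated with a cell's original log2 total UMIs at -0.31 to 0.17 across the strata. Above 0.8 they correlated with the number of genes detected after thinning at -0.30 in library 1 and 0.080 in library 2. With the mitochondrial share the values there were 0.16 and -0.047. The part of depth, detected genes and mitochondrial share in the pairwise values was not tested.

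Fos with Fosb had the highest mean correlation over the 6 strata (0.41, range 0.27 to 0.59), followed by Fosb with Jun (0.37) and Fos with Jun (0.37). Jun with Atf3 (0.34) and Jun with Dusp1 (0.29) came next. By gene, the mean with the other 9 was highest for Jun (0.27) and lowest for Egr1 (0.13).

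**Figure D5:**
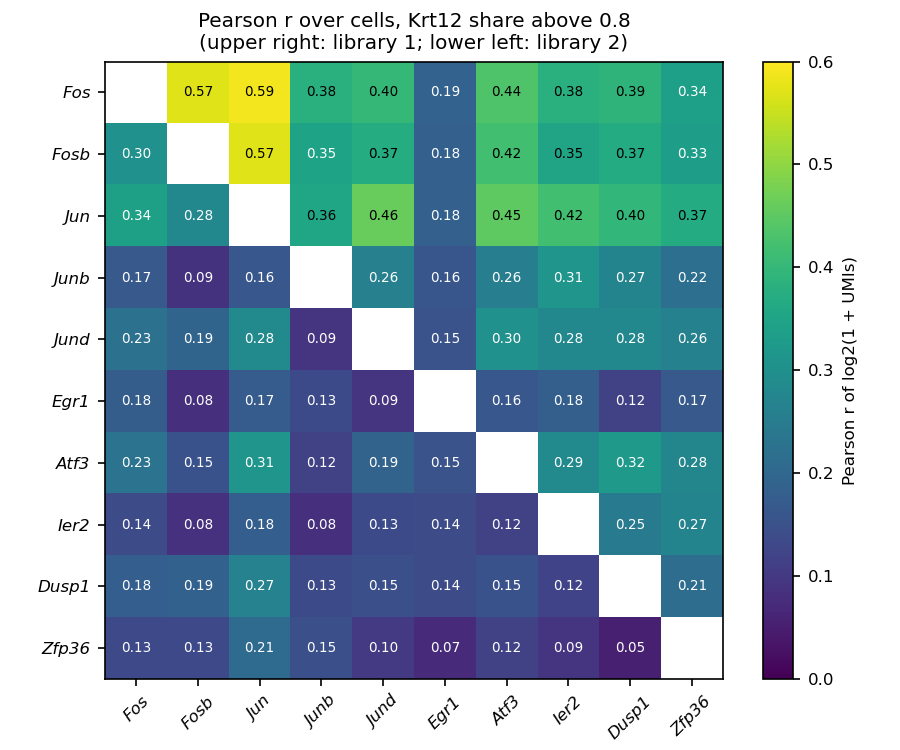
Pairwise correlation of the members' log2(UMIs + 1) in cells thinned to 2000 UMIs, for the band above 0.8 of each library. Pairs among Fos, Fosb and Jun reach 0.57 to 0.59 in library 1 and 0.28 to 0.34 in library 2.

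RNA free in the suspension was not measured, so the following counts per cell describe UMIs and not which cells expressed a member. At 2000 UMIs the median cell above 0.8 had 16 member UMIs in library 1 (10th to 90th percentile 2.8 to 32) and 7 in library 2 (1 to 15). Under 0.4 the medians were 9 and 3. Cells with no member UMI made up 1.71% to 3.8% of each band in library 1 and 3.29% to 8.73% in library 2. The top 10% of cells held 24.0% to 31.3% of the member UMIs. Jun had a variance of 3.79 times its mean above 0.8 in library 1, the largest such ratio there, and Egr1 1.41 times.

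Among 2707 genes, those whose level in single cells of the band above 0.8 was most like the summed members were Neat1 (mean correlation over the libraries 0.37), a nuclear long non-coding RNA, Hist1h1b (0.30), H3f3b (0.29) and Klf6 (0.27). Nfkbia (0.26), Hist1h2ap (0.24), Btg2 (0.22), Hist1h1e (0.22) and Nfkbiz (0.22) were also among the first 10. Nfkbia and Nfkbiz encode regulators of NF-kB, and 4 of the 10 encode histones. Each member was also compared with the sum of the other members, whereas non-member genes were compared with the sum of all 10. For each member except Egr1, 1 or fewer non-member genes had a higher correlation. For Egr1, 7 genes were above it. Correlations among the members in single cells were used in the selection, so this ranking is a description and nothing is read from it.

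Lists of related genes were examined in the same fits. Of 32 other immediate early genes tested, 12 passed as higher above 0.8 and 3 as lower, with a median log2 fold change of 0.39, beside 15.6% and 16.9% of all genes. Without the library block the list had 1 higher and 1 lower. The matricellular genes Ctgf and Cyr61 moved in opposite directions by edgeR's test: Ctgf had a log2 fold change of -4.87 ± 0.27 (adjusted p = 6.56e-15) and Cyr61 of 1.78 ± 0.19 (adjusted p = 1.64e-04). Ctgf fell from 38.2 to 1.23 CPM in library 1 and from 26.0 to 0.866 CPM in library 2. Plk2, a polo-like kinase, was higher by 1.56 ± 0.29 (edgeR adjusted p = 0.0174).

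Of 15 other AP-1 and bZIP partners, 2 were higher above 0.8 and 1 lower, with a median of -0.12; without the library block 1 and 0 passed, and with DESeq2 2 and 0. Jdp2, a repressor that pairs with JUN proteins, was higher by 1.05 ± 0.12 (edgeR adjusted p = 3.14e-08). Creb1, which binds the cyclic AMP response element, was lower at -0.51 ± 0.13 (edgeR adjusted p = 0.00256). Of 22 upstream kinases and factors, 2 were higher and 4 lower, with a median of -0.22. Over all genes 15.6% passed as higher and 16.9% as lower. For the upstream list DESeq2 gave 1 and 0 and the fit without the library block 0 and 0. Braf, a kinase of the ERK pathway, was higher by 0.89 ± 0.16 (edgeR adjusted p = 1.72e-04), as was Map2k7, a JNK pathway kinase, by 0.48 ± 0.18 (edgeR adjusted p = 0.0465). Mkl2, a coactivator of serum response factor, was lower at -0.54 ± 0.17 (edgeR adjusted p = 0.0194).

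Between G2/M-called and S-called cells, 4 of 30 other immediate early genes were higher and 3 lower in edgeR's test, beside 6.3% and 8.1% of all genes. These calls were lost with DESeq2 and without the library block (0 in either direction in both), and 1 higher and 1 lower were called after thinning. Tob1 was higher by 0.57 ± 0.18 (edgeR adjusted p = 0.0268), Sertad1 by 0.48 ± 0.15 (edgeR adjusted p = 0.0313) and Nr4a2, an orphan nuclear receptor, lower at -0.62 ± 0.18 (edgeR adjusted p = 0.0183). Of the 21 upstream genes, edgeR and DESeq2 called 0 in either direction, and 3 had an unadjusted edgeR p under 0.05. Over all 10300 genes, 1292 higher and 1503 lower had such a p. Between libraries, 2 of 19 other immediate early genes, Gadd45g and Ier5l, were at least 2-fold higher in library 1 in all bands. The same rule was passed by 0 of 8 bZIP partners, 0 of 14 upstream genes and 0.328% of all 5184 genes. The 2 counts of 0 are near that share, so nothing is read from them.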

How the data were processed

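The authors deposited whole-number UMI counts per gene and cell for 2 aggregated libraries. Cell Ranger 3.1.0, Seurat 5.0.0 and the builds GRCm38 and mm10 are named per the submitters' processing notes, without roles; whether depth was equalised on aggregation is not given in the sources used here. From the counts, cells with at least 500 genes and under 20% mitochondrial UMIs were kept and banded where Krt12 plus Krt15 had at least 5 UMIs (6072 cells). No doublet caller was run; leaving out the 3% of cells with most UMIs was an alternative. Counts summed per library and band, or per library and phase, were tested with edgeR 4.0.16 (quasi-likelihood, library as block, Benjamini-Hochberg adjustment over all genes tested); SE is the size of the log2 fold change divided by the square root of F. DESeq2 1.42.0 was an alternative. Nothing says that the replicates come from separate animals. With the library block, p-values measure only how far the band or phase differences disagreed between these libraries. They do not cover the spread in level between libraries, and sums of the same library entered each fit as separate observations. The block was the library number in the barcodes, which marks cells captured together.

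Phases came from scanpy 1.11.5. They were first scored on all genes; the filter to genes found in at least 3 cells was set after the members' values from that first version had been seen, and the first version is kept as an alternative. The alternative of at least 1000 genes per cell, and the TGACGT motif, were also chosen after seeing data. Printed promoters were limited to those overlapping no annotated exon (GENCODE M21). Scripts were tested on simulated data. The members and lists were chosen with earlier results of these data known. Genes named from a list are the 3 with the largest change among those past the threshold in that list with the same sign in both libraries; the 10 most alike genes were named by mean correlation over the libraries. Some genes that this rule names are not reported here.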

Additional observations from a re-analysis of the deposited data

Results flagged for a closer look

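Egr1 moved in opposite directions with the Krt12 share in the libraries, at -0.21 (log2, band above 0.8 over the band under 0.4) in library 1 and 0.68 in library 2, and this difference was not tested. Barcodes left out of all comparisons held member RNA too. In library 1, barcodes with 20% or more mitochondrial UMIs had 13141 CPM summed over the members, and those with under 500 genes had 18457 CPM. In library 2 the same sums were 7206 and 3805 CPM. Kept cells of library 1 just inside the limits, with 500 to 600 genes or 15% to 20% mitochondrial UMIs, had 17693 and 19510 CPM, against 3337 and 5537 CPM in library 2.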

How the results depend on the processing

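All alternatives kept the sign of every member's log2 ratio between libraries above 0.8; with at least 1000 genes per cell, an alternative chosen after seeing the data, the median was 0.92 in place of 1.01. Without the replicate block, 0 of 10 members passed as higher above 0.8, with 688 genes higher and 865 lower; DESeq2 gave 793 and 984, and thinning to 2000 UMIs 1082 and 1179. In the cycle contrast, genes higher and lower numbered 156 and 153 with DESeq2, 134 and 112 without the replicate block, 355 and 443 after thinning, and 371 and 454 in the band under 0.4. Members called higher in G2/M-called cells numbered 1 with no filter on low counts, 2 in the band under 0.4 and 2 over all banded cells. Their median log2 change, 0.012, had no stable sign. It was -0.0026 without the replicate block, -0.095 after thinning and -0.027 over all banded cells. It was 0.031 with no filter, 0.059 without the 3% of cells with most UMIs and 0.11 in the band under 0.4. With phases scored on all genes it was 0.054. In single libraries it was 0.085 to 0.09. Those 2 values are ratios of CPM without edgeR's scaling between sums, so they are not on the scale of the fit. Mean pairwise correlation, 0.20, was 0.32 without thinning and 0.27 at 4000 UMIs. The cause of these shifts was not tested.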

Other observations

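Besides the members, 13 genes were at least 2-fold higher in library 1 in all bands; they are all such genes and were named after their values were seen. S100a8 and S100a9, alarmins of stressed epithelium and of neutrophils, had 133 and 220 CPM above 0.8 in library 1 and 3.90 and 13.8 CPM in library 2. Krt16, a keratin of stressed epidermis, had 344 and 89.2 CPM there, Fabp5 4613 and 1235 CPM, and the inducible heat shock gene Hspa1a 618 and 130 CPM. The others were Gadd45g, Dmkn, Tcim, Fam71a, Ier5l, Ercc1, AC160336.1 and Hspa1b.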
